A study of Mus musculus with 6 samples.

Results

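The rows described here count small RNA tags that were assigned to families of microRNA (miRNA) precursors in Rfam, a database that groups RNAs by shared sequence and folded structure. They were the rows of the deposited count table with an Rfam identifier whose description names a mir or let-7 family, with a summed count of at least 30 over the 6 libraries. Of the named family rows, 71 met this minimum and 77 were under it, 27 of the 77 at 0 in every library. The whole table held 61628 rows, 1573 of them known mouse miRNAs. The members were thus chosen by their summed counts over both groups, and the size of a sum is a description and not a result.

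The libraries were made from peritubular myoid cells, the contractile cells that wrap the seminiferous tubules of the testis, taken as primary cells from C57BL/6J mice and cultured with fetal bovine serum. One group was left untreated (3 libraries). The other was exposed to 50 nM ET1, or endothelin-1, a peptide that makes smooth muscle contract, for 5 min (3 libraries). The labels give neither the age of the mice nor whether the libraries of a group came from separate animals or cultures, and a p-value here reflects the spread among 3 libraries a group, whether technical or not.

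A miRNA gene is transcribed as a long RNA with a hairpin, the nuclear enzyme Drosha frees the hairpin, and Dicer in the cytoplasm cuts it to a short duplex. One strand of the duplex, the mature miRNA, is loaded into an Argonaute protein and pairs with messenger RNAs, mainly through its seed, bases 2 to 8. Related hairpins, often on different chromosomes, give mature miRNAs with the same seed and form a family. In smooth muscle miR-143 and miR-145 are known for the contractile state, miR-133 for muscle in general, and miR-221 and miR-222 for proliferation. A family row can therefore gather several genes, though not every family has more than 1, and the table gives neither the sequence nor the length of the tags in it. How a tag was divided between a family row and a mature row is not given in the sources used here.

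Mature miRNAs of the most counted families are printed first, because the shared seed, in capitals, and the differences outside it show some of what a family row can gather. The sequences are from a set of RefSeq entries on GRCm38.p6 that was incomplete. It held a hairpin for 51 of the 71 families (110 hairpin genes, of which 36 lay in an exon, 34 in an intron and 40 in no annotated gene of the same strand in GENCODE M21). These numbers describe the set and not all mouse genes of the families. A hairpin that overlapped an exon of any annotated transcript was counted as in an exon, even if it lay in an intron of other transcripts. Families without a hairpin in it, such as mir-143, mir-145 and mir-320, can still have mouse mature rows. Some mature miRNAs had no sequence in the set and are not printed, miR-30b-5p, miR-30d-5p, miR-23b-3p and miR-133a-3p among them. The mir-30 family:
miR-30a-5p: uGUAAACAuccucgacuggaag
miR-30c-5p: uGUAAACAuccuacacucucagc
miR-30e-5p: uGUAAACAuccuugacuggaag
miR-30a-5p and miR-30e-5p differed at 1 of 22 positions, and miR-30a-5p and miR-30c-5p at 5 of 22. The most counted mature row of the family, miR-30d-5p, is missing from this list for lack of a sequence.

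The mir-92 family, whose main products share a seed:
miR-92a-3p: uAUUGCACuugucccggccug
miR-92b-3p: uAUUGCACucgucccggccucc
These differed at 2 of 21 positions. The mir-23, mir-27 and mir-24 families, which lie beside each other in both of their clusters:
miR-23a-3p: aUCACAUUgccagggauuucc
miR-27a-3p: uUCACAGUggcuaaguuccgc
miR-27b-3p: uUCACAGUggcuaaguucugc
miR-24-3p: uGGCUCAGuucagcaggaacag
One cluster is on chromosome 8, with Mir23a at chr8:84208518-84208592, Mir27a at chr8:84208672-84208758 and Mir24-2 at chr8:84208815-84208921, all on the plus strand. The other is on chromosome 13, within 2010111I01Rik, with Mir23b at chr13:63300484-63300557 in an intron, and Mir27b at chr13:63300712-63300784 and Mir24-1 at chr13:63301208-63301275 in exons.

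Families that join differently numbered miRNAs are shown because the number in the family name then leaves out some of the products. miR-222 shares the seed of miR-221, and miR-212 that of miR-132:
miR-221-3p: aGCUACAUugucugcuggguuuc
miR-222-3p: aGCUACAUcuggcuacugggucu
miR-132-3p: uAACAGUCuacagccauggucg
miR-212-3p: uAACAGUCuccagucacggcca
The first pair differed at 12 of 23 positions and the second at 5 of 22. Mir132 lies at chr11:75173682-75173747 in an intron of 1700016P03Rik, with Mir212 beside it at chr11:75173388-75173478, and Mir221 lies at chrX:19146294-19146388 on the minus strand, outside annotated genes.

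The remaining sequences belong to families that the comparisons below turn on, namely mir-181, mir-155, mir-133, mir-126 and mir-10:
miR-181a-5p: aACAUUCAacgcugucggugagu
miR-181b-5p: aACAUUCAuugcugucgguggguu
miR-155-5p: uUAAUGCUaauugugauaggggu
miR-133b-3p: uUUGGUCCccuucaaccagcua
miR-126a-3p: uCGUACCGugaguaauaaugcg
miR-10b-5p: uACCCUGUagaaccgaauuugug
Of the mir-133 rows, miR-133a-3p was the most counted, and the set held no sequence for it. The 3 hairpins below show where the mature miRNAs, in capitals, sit in the precursor that a family row is named for. Mir92-1 (chr14:115044427-115044506, plus strand) lies in an exon of Mir17hg, the host of the 17-92 cluster. Mir155 (chr16:84714140-84714204, plus strand) lies in an exon of Mir155hg.
Mir92-1: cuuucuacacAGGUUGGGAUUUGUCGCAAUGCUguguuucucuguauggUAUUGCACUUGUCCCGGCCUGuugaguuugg
Mir132: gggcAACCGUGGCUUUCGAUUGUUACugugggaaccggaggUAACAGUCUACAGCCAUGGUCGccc
Mir155: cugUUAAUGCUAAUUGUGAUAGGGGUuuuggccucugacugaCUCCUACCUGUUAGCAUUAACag

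The depth of a library was 18127265 to 20895432 tags. Known miRNAs took 4381927 to 8651018 of them. The known miRNA share was 38.8%, 45.6% and 30.1% in untreated libraries 1 to 3 and 25.5%, 22.6% and 24.8% in ET1 libraries 1 to 3, lower in every ET1 library. Tags of rRNA rows made up 3.22% to 5.63% of untreated and 7.12% to 11.02% of ET1 tags. Among marker miRNAs, the smooth muscle markers miR-143-3p and miR-145a-5p were present in all libraries, and the 4 markers of that list summed to 19454 to 23874 per 1000000 known miRNA tags (CPM) in untreated and 14002 to 18343 in ET1 libraries. Of the 4, 2 were lower in ET1 without overlap and 2 overlapped, and 1 was at 0 in a library. Most of the sum was miR-143-3p (16945 to 22000 against 11293 to 15850 CPM), while miR-145a-5p overlapped (1850 to 2553 against 2485 to 3086 CPM). Both endothelial markers were lower in ET1 without overlap (summed 1057 to 1646 against 130.8 to 191.9 CPM). The 4 leukocyte markers summed to 193 to 283 against 39.3 to 46.7 CPM, with 1 lower, 2 higher and 1 overlapping, and 2 of them were at 0 in a library. Red cell markers summed to 42.8 to 643 in untreated and 44.1 to 328 in ET1 libraries (1 of 2 higher without overlap, the other overlapping). None of the 6 epithelial and Sertoli markers separated the groups (958 to 1289 against 796 to 2170), and 2 of 5 germ cell markers were higher in ET1 without overlap (30378 to 59326 against 40322 to 81586). In such bulk libraries fewer cells of a type and less RNA per cell cannot be told apart, and the part of these differences in the results below was not tested.

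The 71 family rows were a small layer of each library. Untreated libraries 1 to 3 gave them 175991, 163002 and 150681 tags, and ET1 libraries 1 to 3 gave them 122393, 84318 and 113506. As a share of all tags this was 0.842%, 0.859% and 0.728% (0.810% ± 0.0714, SD, n = 3) against 0.675%, 0.434% and 0.582% (0.564% ± 0.121, SD, n = 3), with all ET1 libraries below all untreated ones. Set against known miRNA tags, the order was lost. There were 2.17, 1.88 and 2.41 family tags per 100 known miRNA tags in untreated libraries and 2.64, 1.92 and 2.35 in ET1 libraries (2.16 ± 0.265 and 2.31 ± 0.362, SD, n = 3 each), and the groups overlapped. The lower share of all tags thus came with a lower share of known miRNAs and a higher share of rRNA in the same libraries. These sums over chosen members were not tested.

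**Figure D1:**
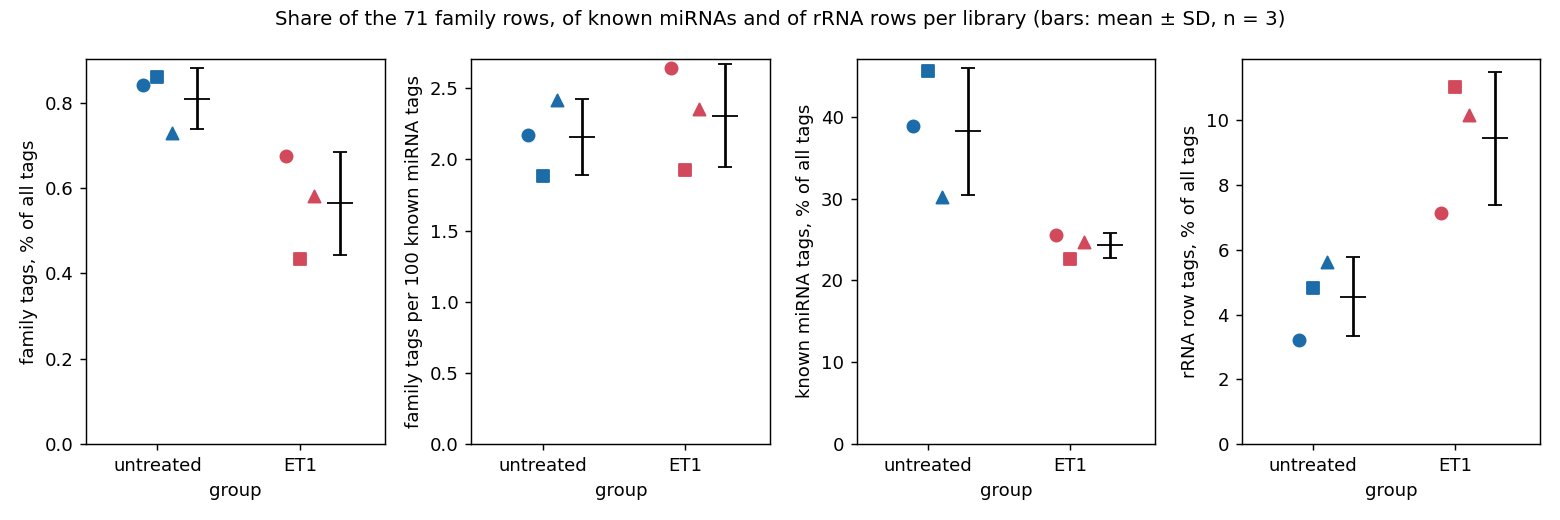
Each panel plots 1 quantity per library against group (circles, squares and triangles are libraries 1, 2 and 3, with the mean and SD of 3 beside them). Family tags as percent of all tags lie between 0.728 and 0.859 in untreated and between 0.434 and 0.675 in ET1 libraries, while family tags per 100 known miRNA tags overlap; known miRNA and rRNA shares are given beside them.

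Most family tags sat in a few rows. The 5 most counted families held 72.4% ± 0.595 of the family tags in untreated and 71.5% ± 5.81 in ET1 libraries, and the 10 most counted held 88.1% ± 0.724 and 84.8% ± 6.66 (SD, n = 3 each). ET1 library 3 lay lowest, at 77.3% for the 10. At the other end, 17 members had a sum under 100, and 68 of the 71 were counted in every library. The members with the smallest sums were mir-275 (35 tags), mir-160 (40) and mir-22 (42), and just under the minimum were mir-9/mir-79, mir-223 and mir-134 with 28 tags each. By library, mir-275 held 4, 1 and 6 tags in untreated and 2, 4 and 18 in ET1 libraries. Of the rows left out, mir-9/mir-79 held 6, 2 and 6 against 2, 7 and 5, mir-223 held 1, 9 and 1 against 10, 7 and 0 and mir-134 held 0, 0 and 1 against 1, 1 and 25.

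The most counted row was mir-30, a family found in nearly all tissues. It had 42410, 45962 and 34712 tags in untreated libraries 1 to 3 and 25371, 12596 and 17927 in ET1 libraries 1 to 3, which was 24.1%, 28.2% and 23.04% of the family tags against 20.7%, 14.9% and 15.8%. Both as counts and as a share of family tags, every ET1 library was below every untreated one. The mir-92 row, named for the oncogenic 17-92 cluster, held 26467, 22374 and 33755 tags against 15063, 8821 and 13941, also without overlap. Its share of the family tags was 15.04%, 13.7% and 22.4% against 12.3%, 10.5% and 12.3%.

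The 3 families of the 23/27/24 clusters were all among the 7 most counted. The mir-23 row had 27199, 20530 and 13073 tags in untreated and 17280, 13476 and 13720 in ET1 libraries, and these overlapped. For mir-27 the counts were 10449, 8287 and 8592 against 6870, 5301 and 6159, and for mir-24 they were 6543, 4998 and 6049 against 3143, 2583 and 2584. In the last 2 families the ET1 libraries were all lower.

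Another pair of abundant families stood closer between the groups. The mir-181 row held 14836, 13748 and 15848 tags in untreated and 15263, 16581 and 16240 in ET1 libraries, and as a share of all tags all ET1 libraries were higher. It made up 8.43%, 8.43% and 10.5% of untreated and 12.5%, 19.7% and 14.3% of ET1 family tags. The mir-221 row held 16134, 14690 and 12744 tags against 20605, 10060 and 12084, where ET1 library 1 was the highest of all and ET1 library 2 the lowest. The let-7 row, of the most abundant family among the known miRNAs here, held only 2977, 3546 and 2821 tags against 3068, 1718 and 2515, and the groups overlapped.

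**Figure D2:**
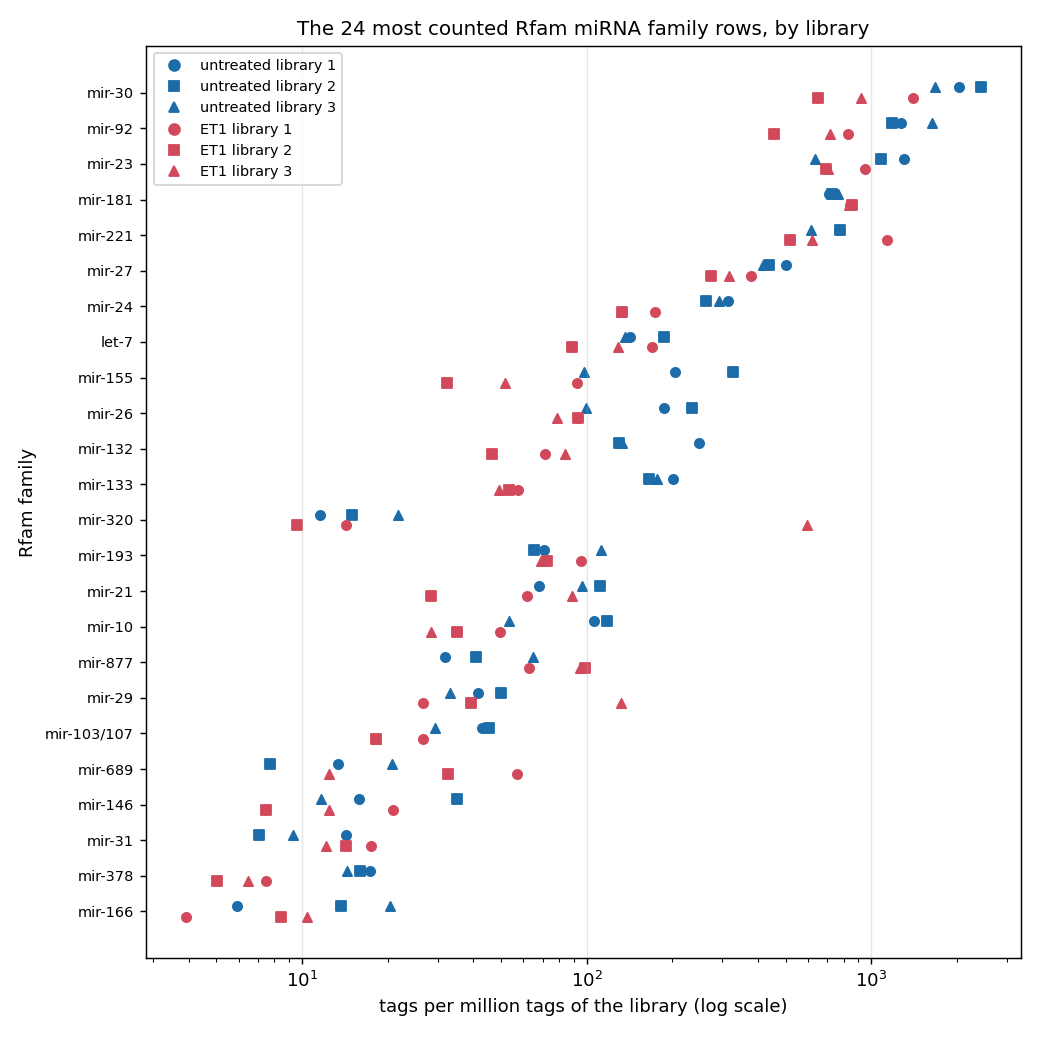
Points give tags per 1000000 tags of the library (log scale) for the 24 most counted family rows, blue for the 3 untreated and red for the 3 ET1 libraries. For mir-30, mir-92, mir-24, mir-132 and mir-133 all red points lie left of the blue ones, and mir-320 has 1 ET1 library far to the right of the other 5.

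The effect of ET1 was tested in the rows other than known miRNAs (2579 rows kept by the expression filter, 64 of them members). The 7 members not kept were mir-160, mir-22, mir-365, mir-275, mir-486, mir-708 and mir-611. With edgeR's quasi-likelihood test and Benjamini-Hochberg adjustment over all 2579 rows, 0 members passed an adjusted p of 0.05, and 0.0% of all rows did; the smallest adjusted p of a member was 0.275. At an unadjusted p under 0.05 there were 15 members, all lower in ET1, where 7.72% of all rows were under it in either direction and 4.34% with lower counts. DESeq2 called 10 members lower and 0 higher, where it called 2.79% of all rows lower and 4.3% in either direction. Among them were mir-10, mir-30, mir-24, mir-133, mir-92, mir-132, mir-139, mir-155 and mir-378. Without the expression filter edgeR called 2 members lower, mir-133 and mir-155, where it called 0.0932% of all rows lower and 0.176% in either direction.

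The fitted values leaned one way. The log2 fold change of ET1 over untreated was below 0 in 50 and above 0 in 14 of the 64 members, with a median of -0.76 against 0.02 over all rows tested, of which 49.2% were below 0. In 19 members the ET1 libraries were all lower after TMM scaling (10.2% of all rows) and in 0 all higher (6.59% of all rows). As plain shares of all tags, 14 of the 71 were lower without overlap (3.94% of rows with a sum of at least 30) and 4 higher (11.5%). How far the members lay from 0 depended on the scaling, while their median stayed below that of all rows. When the same rows were scaled to the known miRNA tags, a choice made after seeing the data, the member median was -0.03 while that of all rows moved to 0.63, and 5 of 64 members were under an unadjusted p of 0.05 in edgeR, where 9.93% of all rows were.

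Among muscle families, mir-133 stood lowest. Its row held 4218, 3133 and 3649 tags in untreated libraries and 1042, 1037 and 960 in ET1 libraries, a wide gap with little spread on either side. The log2 fold change was -2.16 (SE 0.38, adjusted p = 0.275 by edgeR, 1.25e-06 by DESeq2). The mature row miR-133a-3p, the most counted of its family, had 1792, 1503 and 1529 tags against 515, 416 and 371 and a log2 fold change of -1.53 (SE 0.39, adjusted p = 0.072 by edgeR in the fit over known miRNAs). Of the smooth muscle pair, the mir-143 row was sparse, at 3.30, 5.32 and 5.99 tags per 1000000 tags of the library against 2.87, 2.68 and 4.21. The mir-145 row was at 6.51, 12.4 and 10.8 against 10.8, 9.17 and 5.28. The mir-1 row, of a striated muscle miRNA, had 13, 4 and 6 tags against 19, 5 and 22. As a share of all tags none of these 3 rows separated the groups, but after TMM scaling mir-143 lay lower in all ET1 libraries, with a log2 fold change of -0.96 (SE 0.45, edgeR adjusted p = 0.728). Of the 4 muscle rows 0 passed in edgeR and 1, mir-133, in DESeq2 and in edgeR with no filter, with 3 values below 0 and 1 above, and mir-145, at -0.61, was at 0.036 when scaled to known miRNA tags.

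The mir-10 and mir-92 families had fold changes below 0 in both the family row and its main mature row. The mir-10 row, from genes within the Hox clusters (Mir10b at chr2:74726070-74726137 on the plus strand, in an intron of Hoxd3 and Hoxd4), held 2221, 2232 and 1108 tags in untreated and 899, 682 and 552 in ET1 libraries, all ET1 libraries being lower. Its log2 fold change was -1.75 (SE 0.53, edgeR adjusted p = 0.342). The mature miR-10b-5p passed in the fit over known miRNAs, at -1.85 (SE 0.39, edgeR adjusted p = 0.0264). The mir-92 row had a log2 fold change of -1.44 (SE 0.30, edgeR adjusted p = 0.275; 2.29e-09 by DESeq2), and miR-92a-3p, with 132345, 118014 and 167493 tags against 74764, 35990 and 83584, one of -0.81 (SE 0.34, edgeR adjusted p = 0.223). The mir-17 row was sparse, with 24, 41 and 31 tags against 27, 14 and 22. Both members of each list had values below 0, and of the 4 families 0 passed in edgeR and 2, mir-10 and mir-92, in DESeq2.

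Of families known to answer to stimuli, mir-155 and mir-132 had all ET1 libraries below all untreated ones. The mir-155 row, of an inflammatory miRNA, held 4253, 6206 and 2021 tags in untreated libraries and 1680, 628 and 1007 in ET1 libraries, and its log2 fold change of -2.36 (SE 0.63, edgeR adjusted p = 0.293) was the lowest of the members tested. Untreated libraries varied widely among themselves, yet none reached down to the ET1 ones. The mature miR-155-5p had 23392, 29691 and 10176 tags against 8769, 3691 and 5933, at -1.41 (SE 0.41, edgeR adjusted p = 0.086). The mir-132 row, of an activity-induced miRNA, held 5191, 2461 and 2764 tags against 1297, 900 and 1630, at -1.81 (SE 0.47, edgeR adjusted p = 0.275), beside -1.21 (SE 0.42) for miR-132-5p. With mir-146, all 3 members of the list were below 0. In edgeR 0 passed, in DESeq2 mir-155 (adjusted p = 0.00776) and mir-132 (0.00538) passed, and in edgeR with no filter mir-155 passed (0.00281).

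In the list of mesenchymal and ubiquitous families, 11 of 12 tested members were below 0, 1 above and 0 passed in edgeR, with a median of -0.99, while 3 passed in DESeq2, mir-30 (adjusted p = 0.00557) and mir-24 (0.00116) among them. The values were -1.51 (SE 0.38) for mir-30, -1.39 (SE 0.35) for mir-24, -1.41 (SE 0.51) for mir-26, -0.91 (SE 0.34) for mir-27 and -0.82 (SE 0.44) for mir-23. The mir-26 row held 3897, 4454 and 2055 tags against 1697, 1813 and 1531, with untreated library 3 near the ET1 ones. Those nearest 0 among the 10 most counted were mir-181 at -0.18 (SE 0.32) and mir-221 at -0.39 (SE 0.39), and both changed sign under the scaling to known miRNA tags, at 0.46 and 0.32. Beside them, miR-27a-3p was at 0.0053, miR-221-3p at 0.14 and miR-30d-5p at -0.69 in the fit over known miRNAs. For the other lists, 4 of 5 epithelial, 5 of 7 other-tissue and both tested blood and endothelial families were below 0, and 0 passed in any of these lists in edgeR or DESeq2.

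At the upper end no member passed either. The 5 highest log2 fold changes were those of mir-320, mir-2 (1.04), mir-689 (0.94), mir-671 (0.86) and mir-124 (0.74), and the 5 lowest those of mir-155, mir-133, mir-126, mir-129 (-1.90) and mir-132. The mir-2 row held 9, 3 and 12 tags against 11, 16 and 32, mir-671 held 11, 23 and 11 against 14, 61 and 23, and mir-124 held 12, 1 and 13 against 10, 13 and 29. The mir-129 row held 36, 54 and 36 tags against 6, 16 and 20. These last 4 were thin rows, where a few tags move the ratio.

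The mir-320 row rested on 1 library. It had 242, 285 and 452 tags in untreated libraries and 258, 186 and 11618 in ET1 libraries, so that ET1 library 3 alone held most of its tags. Its log2 fold change was 3.23 (SE 1.51, edgeR adjusted p = 0.721) and -0.76 without ET1 library 3. The mature miR-320-3p, of a miRNA made without Drosha, had 66201, 74276 and 79333 tags against 40553, 44766 and 66184, with no such step. Over the 71 members, the highest share of all tags lay in ET1 library 3 for 18, and in ET1 libraries 1 and 2 for 9 and 4. It lay in untreated libraries 1 to 3 for 9, 23 and 8. Among these other rows, mir-29 and mir-126 had ET1 library 3 above the other ET1 libraries, for mir-126 within the untreated range. The mir-29 row held 865, 951 and 684 tags against 481, 759 and 2580. The mir-126 row is of an endothelial miRNA whose hairpin overlapped an annotated exon of Egfl7 (Mir126a, chr2:26591357-26591429, plus strand). This row held 60, 65 and 48 tags against 1, 1 and 55. Its log2 fold change was -2.05 (SE 1.36) but between -5.94 and -1.51 when single libraries were left out. The mature miR-126a-3p was low in all 3 ET1 libraries, with 13300, 12906 and 6570 tags against 602, 565 and 915 (log2 fold change -3.61, SE 0.40, edgeR adjusted p = 0.00019).

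**Figure D3:**
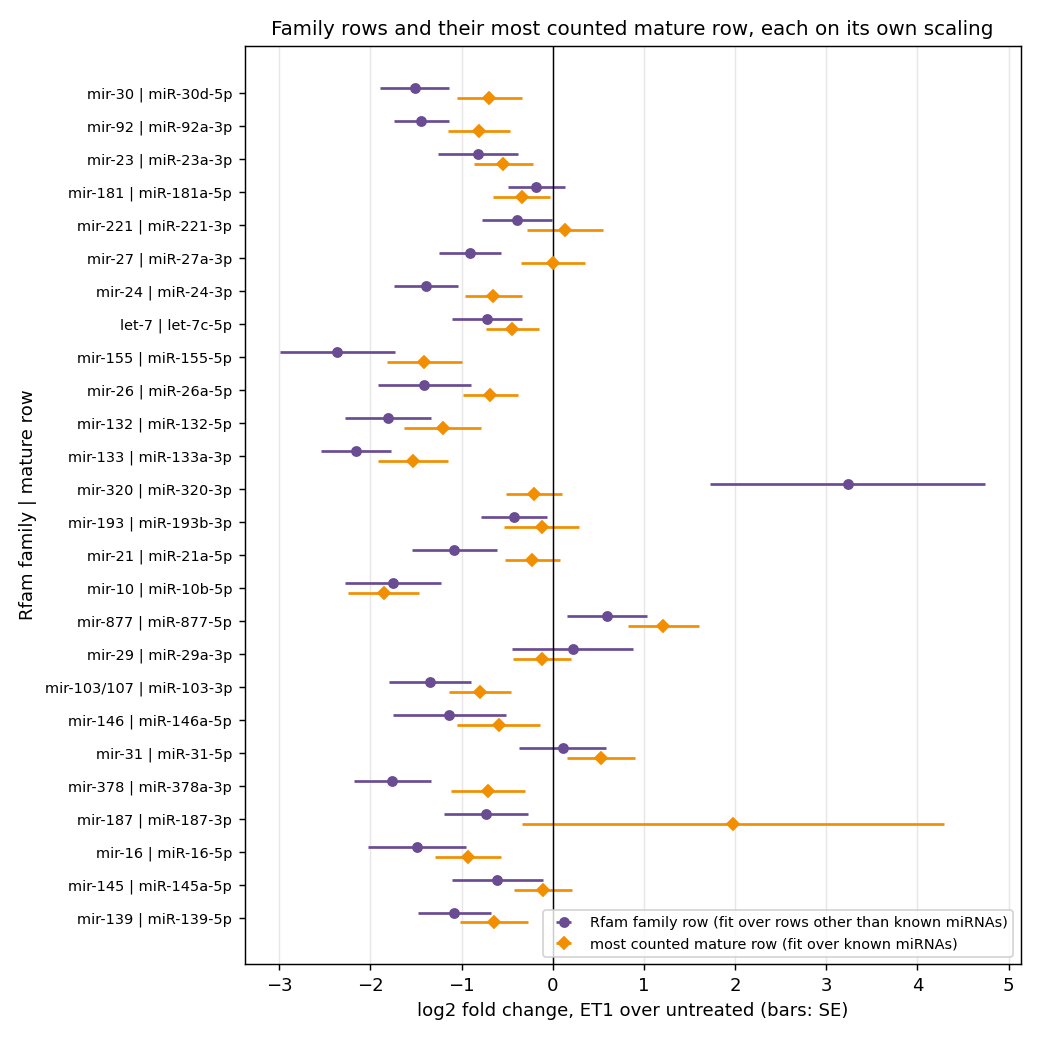
Circles give the log2 fold change of ET1 over untreated for each family row with a sum of at least 1000 and a tested mature row, diamonds that of its most counted mature row, and bars the SE. The mir-689 and mir-166 rows, which have no mature row, are not shown. The 2 kinds of point come from separate fits with separate scalings. Most circles lie between -2.4 and 0, and mir-320 stands apart at 3.23 with an SE of 1.51.

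Known mature rows of the same families were fitted with all known miRNAs (616 tested, 1.79% of them past an adjusted p of 0.05). Of 209 mature rows, 160 were tested and 3 passed by edgeR: miR-10b-5p and miR-126a-3p lower, and the joint row of miR-486a-5p with miR-486b-5p higher at 2.41 (SE 0.49, adjusted p = 0.024). The family row of the last, mir-486, had only 1, 0 and 4 tags in untreated and 16, 12 and 12 in ET1 libraries. Below 0 were 116 and above 0 were 44 of the 160, with a median of -0.33 against 0.01 over all known miRNAs, of which 49.5% were below 0. The count of 3 ranged from 1 to 14 as single libraries were left out: 1 without untreated library 2 (0.778% of all known miRNAs called) or without ET1 library 3 (0.302%), 14 without untreated library 3 (3.96%) and 13 without ET1 library 1 (4.43%). Both kinds of row come from the same libraries and different scalings, so the values are given side by side and their difference was not tested.

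How many tags a family row held for each mature tag varied by orders of magnitude. Of the members, 59 had mature rows of the same number with tags in every library. With the 6 libraries pooled, their median was 4.55 family tags per 100 mature tags. The median of the group means was 4.73 in untreated and 5.67 in ET1 libraries, where single libraries can raise a mean. Taken family by family, the median log2 of the ET1 mean over the untreated mean was 0.0999. In 10 families there was under 1 per 100, and in 4 the family row held more tags than its mature rows together. The 4 were mir-221 (226 per 100), mir-133 (225), mir-132 (201) and mir-30 (198). Across the 59 families, the family and mature sums had a Spearman rho of 0.637 and a Pearson r of 0.641 on the log10 scale, as a description over families that share their libraries.

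Some of these ratios were steady from library to library. The mir-133 ratio was 232.4, 206.1 and 233.3 per 100 in untreated libraries and 199.2, 242.3 and 255.3 in ET1 libraries, so the family row kept its distance from miR-133a-3p although both were counted several times less in ET1. For mir-132 the values were 204.2, 205.9 and 186 against 210.6, 179.3 and 222.1, and for mir-155 they were 19.6 ± 1.37 against 17.7 ± 1.25 (SD, n = 3 each). The coefficients of variation over the 6 libraries were 9.41%, 7.90% and 8.47%. The mir-92 ratio was 19.8, 18.7 and 19.9 against 19.9, 24.01 and 16.3, which overlapped. Among the 26 families with a sum of at least 1000 and a ratio, the median coefficient of variation was 21.1%, 13 were under 20% and 17 had a largest ratio under 2 times the smallest.

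The mir-30 ratio was less steady, at 280.0, 199.5 and 154.7 in untreated and 280.7, 123.7 and 172.6 in ET1 libraries. When miR-222 was counted with miR-221 and miR-212 with miR-132, whose seeds are shown above, the mir-221 row held 47.5 and the mir-132 row 44.3 tags per 100 mature tags, while mir-133 and mir-30 kept their values. So 2 of the 4 families above 100 were above it only by the number in the name.

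In 7 of the 59 families the ratio was higher in every ET1 library and in 2 it was lower, with 50 overlapping. None of these was tested. Rows outside the families have no such ratio, so no share over all rows can be set beside these counts. Among the 7, the mir-708 and mir-182 family rows held only 43 and 83 tags. For mir-181 the ratio was 6.59, 5.66 and 5.36 per 100 in untreated and 11.4, 9.62 and 9.11 in ET1 libraries. For mir-10 it was 22.9, 20.3 and 20.8 against 33.8, 51.7 and 30.8. In the mir-10 family the ET1 counts of both rows were lower, the mature ones by more. A wider membership was set by hand and added miR-99 and miR-100, giving 10 mature rows. With it the mir-10 ratio turned round, at 0.677, 0.685 and 0.542 against 0.454, 0.467 and 0.313. The table's own family column, a match chosen after seeing the data, gave mir-10 15 mature rows. The ratio was then 0.405, 0.354 and 0.212 against 0.254, 0.235 and 0.173, and the groups overlapped. The mir-16 ratio differed little in size (2.30, 2.39 and 2.56 against 2.85, 2.65 and 2.81) but did not overlap, and with the wider membership it did, at 0.617, 0.817 and 0.513 against 0.496, 0.554 and 0.550. Over all families that membership left 5 higher and 3 lower without overlap. Other differences went with a mature row that was near 0 in some libraries. The mir-7 ratio of 9.40, 9.96 and 8.89 against 14.1, 185.7 and 106.2 went with miR-7b-5p counts of 0 in ET1 libraries 2 and 3 and of 422 to 930 in the other 4 libraries. When the known miRNA rows typed as hairpin were counted too, the mir-7 ratio was 7.98, 8.44 and 7.62 against 11.2, 5.86 and 6.34, and the groups overlapped. The mir-187 ratio was 304, 457 and 35.4 against 29.4, 29.9 and 22.9, and miR-187-3p had 1 tag in each of untreated libraries 1 and 2 and 458 to 608 in the other 4. The mir-187 row itself was even, at 9.76, 15.2 and 9.18 tags per 1000000 against 11.4, 8.45 and 7.80.

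**Figure D4:**
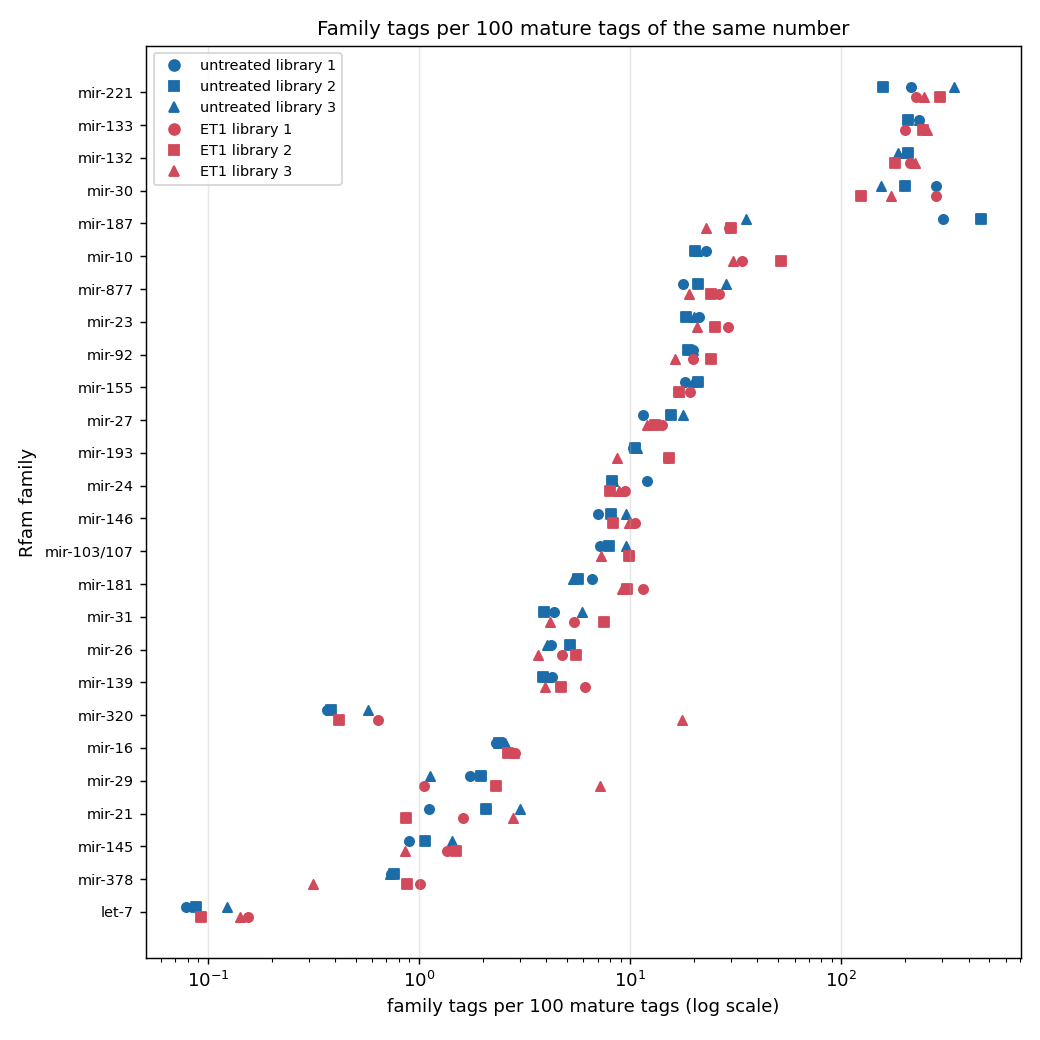
Points give family tags per 100 mature tags of the same number (log scale) for the 26 families with a sum of at least 1000, blue for untreated and red for ET1 libraries. Most families keep their 6 points close together over a range from about 0.1 for let-7 to over 200 for mir-221, and mir-320 and mir-29 each have ET1 library 3 to the right, mir-187 untreated libraries 1 and 2.

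The lowest ratios belonged to miRNAs whose mature rows were very full or whose family rows were nearly empty. The mir-22 row held 6, 3 and 9 tags in untreated and 10, 6 and 8 in ET1 libraries, 0.00365 per 100 mature tags, although miR-22-3p is one of the abundant stromal miRNAs. The mir-143 ratio was 0.0744 and that of let-7 0.106. The other 2 were mir-365 (0.139, from 0, 16 and 7 tags against 0, 0 and 22) and mir-486 (0.261). At the other end, mir-708 (86.0) rested on 1, 4 and 4 family tags against 5, 11 and 18.

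For 11 members the table held no known mouse miRNA of the same number: mir-689, mir-166, mir-1937, mir-276, mir-1225, mir-611, mir-263, mir-71, mir-2, mir-160 and mir-275. Of these, mir-166 and mir-160 are plant families, mir-276, mir-263 and mir-275 are known from arthropods, and mir-2 and mir-71 from invertebrates. Together they held 556, 563 and 1200 tags in untreated and 1409, 1019 and 789 in ET1 libraries, between 0.316% and 1.21% of the family tags, and the groups overlapped. The mir-689 row was the largest, at 13.4, 7.75 and 20.7 tags per 1000000 against 57.0, 32.7 and 12.4, followed by mir-166 at 5.93, 13.7 and 20.3 against 3.92, 8.45 and 10.4. Next came mir-1937 with 39, 66 and 160 tags against 204, 74 and 88, and mir-276 with 49, 23 and 53 against 34, 32 and 56. The mir-1225 row had 21, 12 and 51 tags against 16, 39 and 14, and mir-263 had 7, 11 and 24 against 22, 23 and 16. The mir-611 row, not kept by the filter, had 5, 4 and 31 tags against 10, 11 and 87, so that library 3 was the highest of both groups. The mir-71 row had 16, 32 and 2 tags against 5, 14 and 19, and mir-160 had 3, 4 and 11 against 1, 7 and 14. Rows of this kind carry few tags, and how they were assigned to mouse libraries was not tested.

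**Figure D5:**
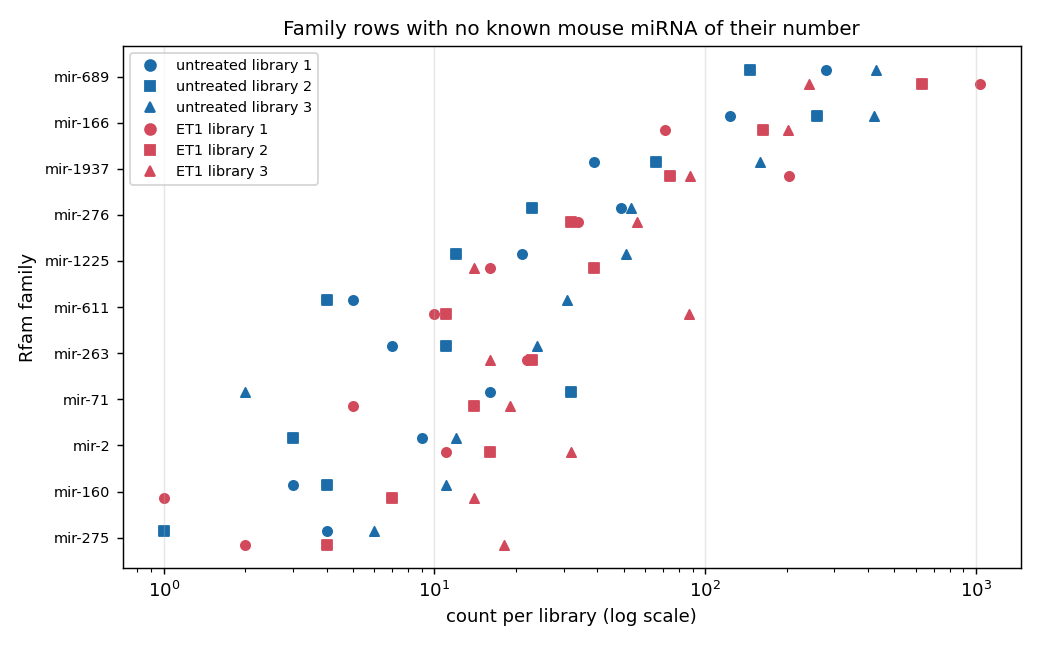
Points give the count per library (log scale) for the 11 family rows with no known mouse miRNA of their number, blue for untreated and red for ET1 libraries. The mir-689 row reaches 1033 tags in ET1 library 1, and the lowest rows hold under 35 tags in every library.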

How the data were processed

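Small RNA tags were counted in 3 untreated and 3 ET1 libraries of primary mouse cells. The authors' table gives, per the file headers, a count of tags per row and library. The counts were used as deposited, and the deposited values headed TPM and the authors' comparison table, which lists no Rfam row, were not used. Bowtie2 and mm10 are named per the submitters' processing notes. Mismatches, the order of annotation and strand handling are not given in the sources used here. The members and lists were chosen with earlier results of these data known. Members are rows of named Rfam miRNA families with a sum of at least 30.

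Known miRNA rows, and all other rows without the 4 total rows, were fitted separately with edgeR 4.0.16 in R 4.3.3 (default filter with the group, TMM, robust quasi-likelihood, two-sided test, Benjamini-Hochberg over each fit, threshold 0.05). The fitting steps were run on simulated counts, where a minimum recovery was required only with large changes and a low spread set beforehand. That check does not show how many changes the fit recovers at the spread of these libraries. DESeq2 1.42.0, library sizes alone, no filter, a replicate block, other minimums, a wider family membership set by hand and single libraries left out were alternatives. The SE given with an edgeR log2 fold change is that change, without its sign, divided by the square root of the test's F statistic. A family was matched to mature rows by its number. Named families were the 10 most counted, fixed muscle, Hox, 17-92 and stimulus families, the 5 highest and lowest fold changes and ratios, those nearest the minimum and those without a mouse row; mir-29, mir-7, mir-187 and mir-16 values beyond this were chosen after they were seen. Every pair of libraries within a group differed beyond sampling noise (the chi-square was at least 60.2 times its degrees of freedom), so each was counted once.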

Additional observations from a re-analysis of the deposited data

How the results depend on the processing

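The count of family rows past the threshold was 0 in edgeR under library sizes alone, with the replicate block and without each library in turn. It was 10 by DESeq2 (15.6% of those tested, 4.3% of all rows) and 2 with no filter (2.82% and 0.176%). For mature rows of the same families it was 3 (1.88% of those tested, 1.79% of all known miRNAs), against 11 by DESeq2 (6.88% and 6.33%), 7 by library sizes alone (4.38% and 6.66%), 12 with no filter (6.06% and 2.70%), 7 with the replicate block (4.38% and 3.41%) and 1 to 14 without single libraries. Libraries of 1 number share only that number in the labels: deviations of same-numbered libraries correlated at 0.092, -0.089 and 0.0095 over the family fit and at 0.294, 0.069 and 0.277 over known miRNAs, where each library correlated best with its own number, a hint from the data and not the design. The summed share of all tags differed by -0.25 percentage points and, without mir-30, by -0.14. Of 378 alternative values for 33 log2 fold changes, 353 kept direction and side of the threshold, 15 passed it newly and 3 no longer did. The 7 reversals were mir-181 (0.46 scaled to known miRNA tags, 0.014 with all rows fitted together), mir-221 (0.32) and mir-145 (0.036) scaled to known miRNA tags, mir-671 (-0.24 without ET1 library 2, and up to 1.46 without single libraries), mir-320 (-0.76 without ET1 library 3, and up to 3.77) and miR-320-3p (0.15 by library sizes alone). The scaling to known miRNA tags and the matching by the table's own family column were chosen after seeing the data. The median over all rows of the family fit, 0.02, was -0.17 by library sizes alone, 0.12 with all rows together and 0.82 with no filter. The cause was not tested.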
